A study of Caenorhabditis elegans with 6 samples.

Results

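The 10 genes described here encode the RNA-dependent RNA polymerases (RdRPs) of *Caenorhabditis elegans* and the helicase, nuclease and RNA-binding partners of these enzymes and of Dicer. They were taken by gene name from an annotation of the WBcel235 genome (*ego-1*, *rrf-1*, *rrf-2*, *rrf-3*, *drh-3*, *ekl-1*, *dcr-1*, *rde-4*, *eri-1* and *pir-1*), and all 10 were found among the 22336 loci at which 22G-RNAs were counted. Small RNAs were sequenced from whole gravid adults in 3 wild-type libraries (strain N2) and 3 *lotr-1(sam117)* libraries (strain RFK1256). All animals were collected 65 hours after arrested larvae were placed on bacterial plates, and all RNA was treated with the pyrophosphohydrolase RppH. The *sam117* allele removes the coding sequence of *lotr-1*, and the strain list of the study describes it, in the entry of another strain (DUP207), as leaving a 3xFLAG::GFP tag at the locus, which N2 does not carry. How RFK1256 was made is not given in the sources used here. The mutant is represented by 1 strain, and since no source says that libraries of a genotype came from separate cultures, p-values measure only the spread between these libraries.

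22G-RNAs are made by RdRPs that copy a target transcript into short antisense RNAs starting with G. Argonaute proteins bind them and silence the target or, with CSR-1, license its expression in the germline. EGO-1 and RRF-1 make 22G-RNAs together with the helicase DRH-3 and the Tudor domain protein EKL-1. RRF-3 acts in the ERI complex with Dicer (DCR-1), the exonuclease ERI-1 and the RNA phosphatase PIR-1 to make 26G-RNAs, which trigger further 22G-RNA synthesis. The question for these 10 genes is how strongly their own transcripts are targeted by 22G-RNAs, and whether this targeting differs when LOTR-1, a protein of germ granules, is absent. A count at a gene is a measure of antisense 22G-RNAs at that gene, not of its messenger RNA or protein.

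The libraries held 3150716 to 3829101 counts of 22G-RNAs, which is the depth used here and not the number of reads sequenced. Median-of-ratios size factors lay between 1.18 and 1.46 in wild-type and between 0.737 and 0.839 in the mutant although totals were similar. Scaling by totals therefore moved the median log2 fold change of 8789 loci from -0.05 to -0.84, and values under both scalings are given below. Normalized counts are counts divided by size factors. At the deleted gene, *lotr-1*, wild-type libraries had 477, 522 and 563 counts and mutant libraries 40, 49 and 60, so that all 6 libraries matched their labels. The source of the counts that remained at *lotr-1* in the mutant was not tested. Counts of 22G-RNAs do not mark tissue or stage, and these labels were not checked.

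In the annotation, 5 of the 10 genes lie on chromosome I, which also carries *lotr-1*. These are *ekl-1* (7095486 to 7098400, plus strand), *rrf-1* (7643431 to 7649777, minus strand), *ego-1* (7650341 to 7656338, minus strand), *drh-3* (7820831 to 7826378, plus strand) and *rrf-2* (12098664 to 12106112, minus strand). *rrf-1* and *ego-1* are neighbours on the same strand with 563 bases and no annotated gene between them. *rrf-3* (8162465 to 8168651) and *pir-1* (9177300 to 9178633) lie on the plus strand of chromosome II. *dcr-1* (8071967 to 8080281) and *rde-4* (10217302 to 10218646) lie on the minus strand of chromosome III, and *eri-1* (415635 to 419958) lies on the minus strand of chromosome IV. All 10 are annotated as protein-coding. None shares exonic bases with another gene on its own strand. On the opposite strand, *rrf-3* shares 37 exonic bases with 1 gene and *pir-1* shares 120 with each of 2 genes, and since 22G-RNAs were counted antisense to exons, reads of these neighbours are on the other strand.

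Among the 10 genes *rrf-2* stood out. Its 22G-RNAs rose 4.45-fold in *lotr-1(sam117)*, and it was the single member to pass a DESeq2 test against a 2-fold change at a false discovery rate of 10% (adjusted p = 7.67e-99). The other members moved less than 2-fold or could not be separated from 2-fold. 1 of 10 members was called higher, against 8.15% of 11682 tested loci, and 0 of 10 were called lower, against 8.14%. At an unadjusted p below 0.05 the number of members lower than 2-fold was also 0 in DESeq2. At a false discovery rate of 10%, edgeR called 1 lower, *pir-1*. These shares are near the background, so the number of calls is no result about the group. In the DESeq2 test against no change, 2 of 10 were higher (*rrf-2* and *eri-1*), against 20.4% of 13386 tested loci, and 5 of 10 were lower (*rrf-1*, *ekl-1*, *dcr-1*, *rde-4* and *pir-1*), against 22.7%. The normalized counts of the genotypes did not overlap at these same 7 genes. Without overlap, 27.6% of the tested loci were higher and 28.6% lower. The tested loci include some with means below 10 normalized counts, which no member has, and few counts make a call harder. These shares are therefore no matched background, and the numbers of members called against no change are no result about the group. The median log2 fold change was -0.25 over the 10 members and 0.04 over the loci tested against 2-fold. In whole animals a different count can come from a different number of cells that carry 22G-RNAs or from a different level in each. These cannot be told apart here.

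**Figure D1:**
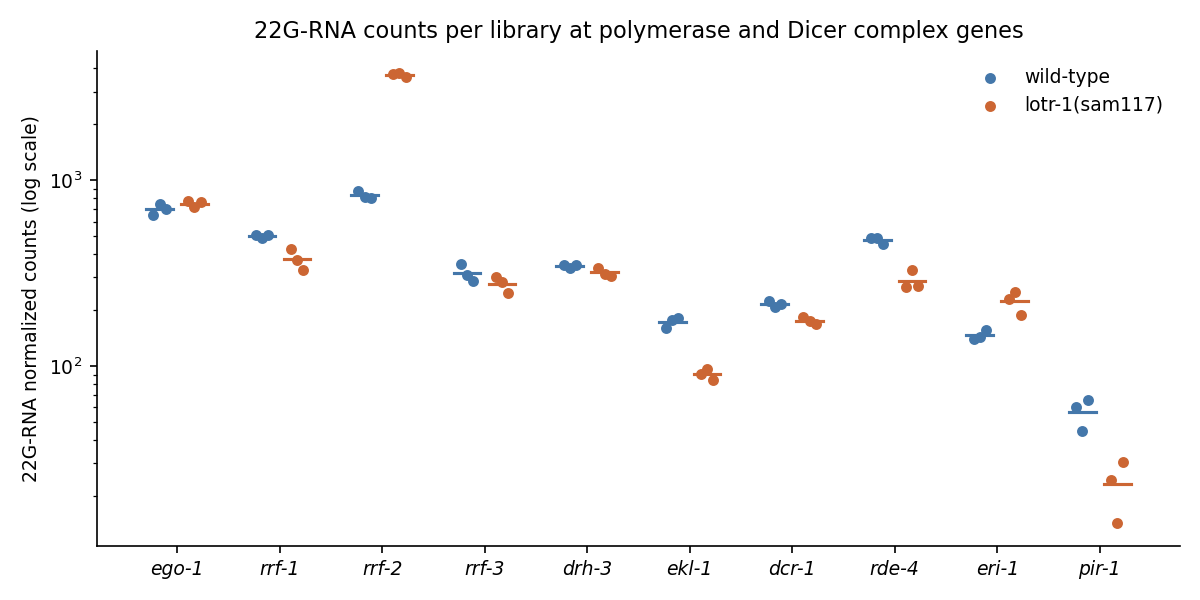
22G-RNA normalized counts (log axis) at each of the 10 genes, with a point per library and a bar at the mean of 3 wild-type (blue) or 3 *lotr-1(sam117)* (orange) libraries. The mutant points of *rrf-2* lie between 3597 and 3765, above all wild-type points of any member, and those of *pir-1* between 14.3 and 30.6.

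**Figure D2:**
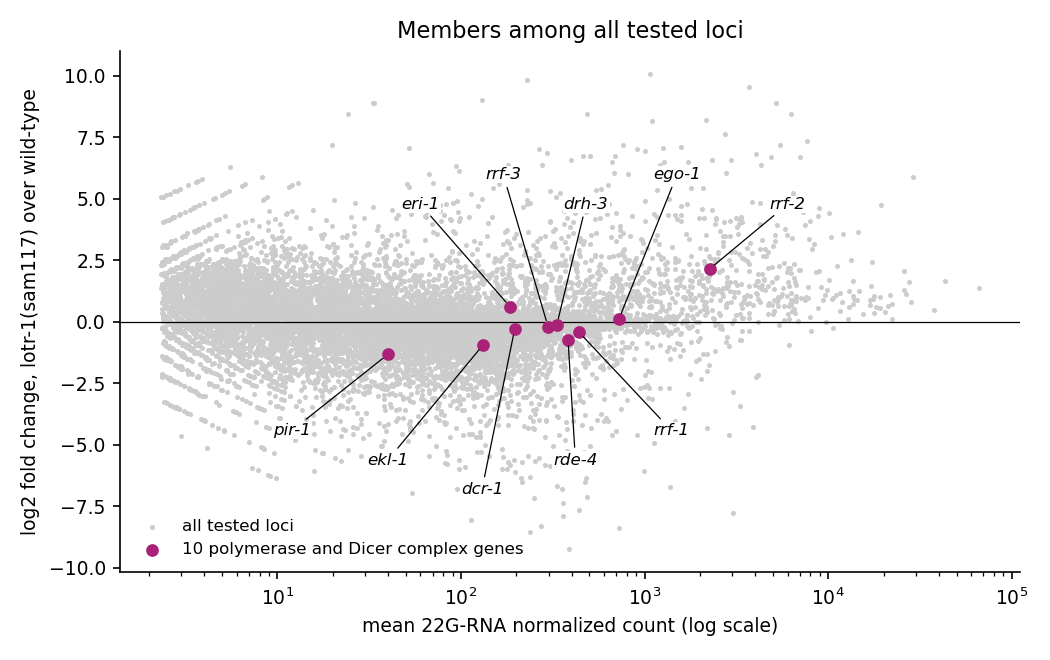
Log2 fold change (*lotr-1(sam117)* over wild-type) against mean normalized count (log axis) for the 11682 tested loci (grey) and the 10 genes (magenta, named). 9 members lie between -1.31 and 0.61, and *rrf-2* lies at 2.15.

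The 4 RdRP genes differed in direction and size. *rrf-2*, a paralog with fewer described roles than the other RdRPs, had 1033, 1078 and 1179 counts in N2, against 2744, 3160 and 2703 in *lotr-1(sam117)*. Every mutant library was more than 2-fold above every wild-type library, even before scaling. Normalized counts averaged 831 ± 41.3 in wild-type and 3695 ± 87.9 in the mutant (SD, n = 3). The estimated log2 fold change was 2.15 (SE 0.0542), with a 95% interval of 4.14- to 4.79-fold. With total-count scaling the rise was 2.58-fold and still past the 2-fold limit (log2 fold change 1.37, DESeq2 adjusted p = 3.03e-11). Leaving out each library in turn gave log2 fold changes from 2.12 to 2.18.

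*ego-1*, the RdRP required for germline development and for CSR-1 22G-RNAs, had 763, 988 and 1028 counts in N2, against 568, 600 and 571 in *lotr-1(sam117)*. After division by size factors the libraries overlapped, with 649, 742 and 702 against 771, 715 and 760 normalized counts. The log2 fold change was 0.10 (SE 0.0809) with size factors, within an interval of 0.960- to 1.196-fold, but -0.69 with total-count scaling, so its direction depended on the scaling. With size factors DESeq2 did not call it against no change (adjusted p = 0.368).

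*rrf-1*, which makes 22G-RNAs in the soma and acts with EGO-1 in the germline, had 598, 653 and 745 counts in N2, against 314, 313 and 247 in *lotr-1(sam117)*. Its normalized counts fell from 503 ± 10.8 to 376 ± 48.8 (SD, n = 3), and the libraries of the genotypes did not overlap. The fall was 1.34-fold (log2 fold change -0.42, SE 0.104, DESeq2 adjusted p = 2.27e-04 against no change). With total-count scaling it was 2.31-fold, which did not pass the test against 2-fold (adjusted p = 0.147).

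*rrf-3*, the RdRP of the 26G-RNA pathway, had 419, 414 and 418 counts in N2, against 222, 238 and 187 in *lotr-1(sam117)*. Its normalized counts overlapped between the genotypes, with means of 318 ± 35.9 and 278 ± 26.7 (SD, n = 3). The log2 fold change of -0.19 (SE 0.126) was not called against no change by DESeq2 (adjusted p = 0.247), although it passed in edgeR (adjusted p = 0.0341) and with total-count scaling (log2 fold change -0.98, DESeq2 adjusted p = 4.63e-15). Its interval with size factors ran from 0.739- to 1.04-fold.

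Ratios within a library do not depend on the scaling. Of the counts at the 4 RdRP genes, *rrf-2* held 36.7%, 34.4% and 35.0% in N2, against 71.3%, 73.3% and 72.9% in *lotr-1(sam117)*. The ranges did not overlap, and in each mutant library *rrf-2* held more counts than the other 3 genes together. The share of *ego-1* was 29.7% ± 2.31 in wild-type and 14.7% ± 0.743 in the mutant, that of *rrf-1* 21.4% ± 0.644 and 7.36% ± 0.754, and that of *rrf-3* 13.5% ± 1.27 and 5.44% ± 0.369 (SD, n = 3).

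**Figure D3:**
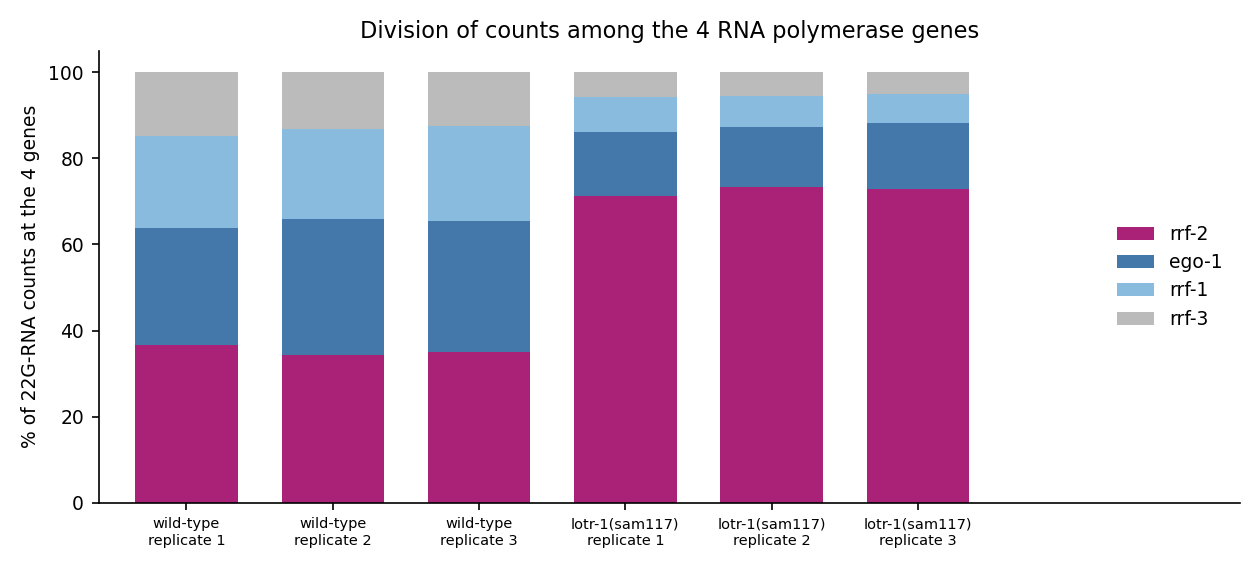
Percentage of the 22G-RNA counts at the 4 RdRP genes held by each gene, in each of the 6 libraries. *rrf-2* (magenta) holds 34.4% to 36.7% in wild-type and 71.3% to 73.3% in *lotr-1(sam117)*.

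The neighbours *ego-1* and *rrf-1* also moved apart. The ratio of *ego-1* to *rrf-1* counts was 1.28, 1.51 and 1.38 in N2, against 1.81, 1.92 and 2.31 in *lotr-1(sam117)*, and the ratio of *rrf-2* to *ego-1* was 1.197 ± 0.138 and 4.94 ± 0.284 (SD, n = 3). In both ratios the mutant libraries lay above all wild-type libraries. The exact two-sided permutation test gave p = 0.1 for each of 4 ratios tested (Benjamini-Hochberg adjusted p = 0.1), the smallest value that 3 libraries against 3 allow. These ratios were chosen after the values were seen. The RdRP genes are paralogs, and a read that matched several places was assigned to 1 of them at random, so that counts may be exchanged where their sequences are identical. How long such stretches are was not measured here.

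The surroundings of *rrf-2* and of the other members were examined in the same way, also after their values were seen. Of the 5 protein-coding genes on each side of *rrf-2*, 4 of 10 had enough counts to be tested. 1 was called higher, and their log2 fold changes ran from -0.19 (M01G12.9) to 1.39 (Y47H10A.5) with a median of 1.17. At *ego-1* the 10 flanking genes were all tested, with log2 fold changes from -2.48 (F26A3.4) to 1.92 (F26A3.5), a median of -0.42 and 1 called lower. For *rde-4* the median of the tested flanking genes was -1.21, with 2 of 9 called lower and 0 higher. For *ekl-1* it was -1.01, with 2 of 8 called lower and 0 higher. The remaining medians were 0.02 (*rrf-1*), -0.43 (*rrf-3*), -0.36 (*drh-3*), -0.31 (*dcr-1*), 0.01 (*eri-1*) and -0.48 (*pir-1*). The genes whose counts over the 6 libraries were most like those of *rrf-2*, by Euclidean distance of log2(normalized count + 1), were *hlh-30* (distance 0.155), *fozi-1* (0.189) and Y42G9A.1 (0.203), on chromosomes IV, III and III. Their log2 fold changes were 2.07, 2.18 and 2.17, and their closeness to that of *rrf-2* follows from this choice.

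The RdRP partners *drh-3* and *ekl-1* differed from each other. *drh-3*, the Dicer-related helicase needed for most 22G-RNAs, had 412, 448 and 513 counts in N2, against 250, 262 and 230 in *lotr-1(sam117)*. These were 346 ± 8.22 and 319 ± 17.7 normalized counts (SD, n = 3), with overlapping libraries. Its log2 fold change of -0.12 (SE 0.109) was likewise not called against no change by DESeq2 (adjusted p = 0.443), with an interval of 0.795- to 1.07-fold, whereas with total-count scaling it was -0.90 and passed it (adjusted p = 1.67e-16).

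*ekl-1*, which encodes the Tudor domain partner, had 189, 235 and 267 counts in N2, against 67, 81 and 63 in *lotr-1(sam117)*. The 3 mutant libraries lay at 90.9, 96.5 and 83.8 normalized counts, below the lowest wild-type library at 161. The fall was 1.92-fold (log2 fold change -0.94, SE 0.177, DESeq2 adjusted p = 6.25e-07 against no change), and it was 3.31-fold and past the 2-fold limit with total-count scaling (adjusted p = 1.71e-04). The ratio of *drh-3* to *ekl-1* counts was 2.18, 1.91 and 1.92 in N2, against 3.73, 3.23 and 3.65 in *lotr-1(sam117)*, with no overlap.

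Of the Dicer and ERI complex genes, *rde-4* and *pir-1* fell, *eri-1* went the other way with size factors, and *dcr-1* was close to the limit of the test. *dcr-1*, the nuclease Dicer, had 264, 278 and 316 counts in N2, against 136, 146 and 126 in *lotr-1(sam117)*. Its normalized counts were 216 ± 7.97 and 175 ± 8.53 (SD, n = 3) and did not overlap. The fall of 1.23-fold (log2 fold change -0.30, SE 0.141) had a DESeq2 adjusted p = 0.0758 against no change. This call was lost when any 1 of the 6 libraries was left out (adjusted p from 0.110 to 0.234) and with the replicate number as a block (adjusted p = 0.184), while in edgeR the adjusted p was 0.00404. Scaled by totals, its log2 value was -1.09.

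*rde-4* encodes the double-stranded RNA-binding protein that works with Dicer in RNAi. It had 572, 653 and 663 counts in N2, against 197, 276 and 202 in *lotr-1(sam117)*, so that each mutant library held less than the lowest wild-type library. Normalized counts fell from 477 ± 20.5 to 288 ± 35.1 (SD, n = 3). This was a 1.65-fold fall (log2 fold change -0.72, SE 0.111, DESeq2 adjusted p = 5.28e-10 against no change), and 2.85-fold with total-count scaling, past the 2-fold limit (adjusted p = 1.63e-05).

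*eri-1*, the exonuclease that restrains RNAi and takes part in 26G-RNA production, had 165, 190 and 229 counts in N2, against 170, 211 and 142 in *lotr-1(sam117)*. Raw counts overlapped, while normalized counts were 140, 143 and 156 against 231, 251 and 189. The log2 fold change was 0.61 (SE 0.152, DESeq2 adjusted p = 2.37e-04 against no change) after division by size factors, and it was -0.18 when scaled by totals (adjusted p = 0.355), so that its direction depended on the scaling. The ratio of *eri-1* to *dcr-1* counts, which scaling leaves as it is, was 0.678 ± 0.0501 in wild-type and 1.27 ± 0.160 in the mutant (SD, n = 3), with no overlap.

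*pir-1*, the RNA phosphatase of the ERI complex, had the fewest counts of the 10 genes, 71, 60 and 96 in N2, against 18, 12 and 23 in *lotr-1(sam117)*. Its spread was also the widest, with a coefficient of variation of normalized counts of 18.8% in N2, against 35.6% in *lotr-1(sam117)*. All mutant libraries nevertheless lay below all wild-type libraries. The fall was 2.49-fold, with an interval of 0.251 to 0.643 for mutant over wild-type (log2 fold change -1.31, SE 0.346). DESeq2 called it against no change (adjusted p = 5.59e-04) but not against 2-fold (adjusted p = 1). In edgeR (adjusted p = 0.0924) and with total-count scaling (4.29-fold, DESeq2 adjusted p = 0.00513) it also passed the limit. The genes with counts most like *pir-1* were *acox-1.6* (distance 0.329), ZC434.4 (0.507) and F28H7.8 (0.632), with log2 fold changes of -1.34, -1.38 and -1.35. That these lie close to the value of *pir-1* follows from the choice by counts.

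**Figure D4:**
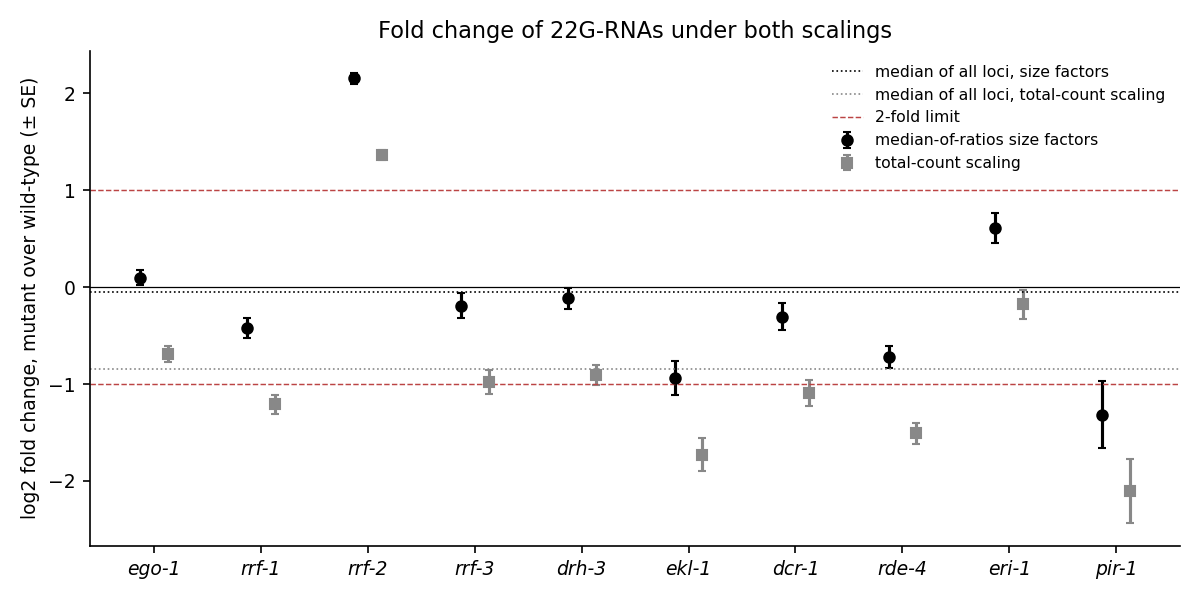
Log2 fold change (*lotr-1(sam117)* over wild-type, ± SE) of the 10 genes with median-of-ratios size factors (black circles) and with total-count scaling (grey squares). Dotted lines mark the medians of 8789 loci, -0.05 and -0.84, and dashed lines mark 2-fold. *ego-1* and *eri-1* change sign between the scalings, and *rrf-2* is past the upper limit under both.

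With total-count scaling 1 of 10 members was higher in the test against 2-fold, where 4.26% of loci were, and 3 of 10 were lower, where 20.0% were. In the test against no change, 1 of 10 was higher, where 9.22% of loci were, and 8 of 10 were lower, where 46.7% were. Among all calls against 2-fold, 50.0% were higher after division by size factors, compared with 17.6% when totals were used. A change of scaling shifts all loci alike, so values relative to the median locus do not depend on it. On the log2 scale these were 2.21 for *rrf-2*, 0.66 for *eri-1*, 0.15 for *ego-1*, -0.67 for *rde-4*, -0.89 for *ekl-1* and -1.26 for *pir-1*.

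As a share of each library, the 10 genes together held 0.142%, 0.145% and 0.142% of 22G-RNA counts in N2, against 0.139%, 0.139% and 0.132% in *lotr-1(sam117)*. Shares of a library are values scaled by totals, under which the median log2 fold change of 8789 loci was -0.84. Without *rrf-2* the share was 0.112% ± 0.00189 in wild-type and 0.0555% ± 0.00250 in the mutant (SD, n = 3), a ratio of 0.498, while *rrf-2* alone went from 316 ± 10.6 to 813 ± 16.5 counts per 1000000. The ratio is one of summed counts and includes the shift of the median locus, which is a log2 value over single loci.

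Levels between genes were compared as normalized counts per kilobase of exon. In wild-type, *rde-4* was highest at 396 ± 17.03, followed by *rrf-2* (171 ± 8.50), *ego-1* (132 ± 8.77), *rrf-1* (100.0 ± 2.15), *drh-3* (98.5 ± 2.34), *ekl-1* (80.8 ± 5.21), *eri-1* (66.6 ± 3.96), *rrf-3* (57.4 ± 6.50), *pir-1* (57.4 ± 10.8) and *dcr-1* (36.8 ± 1.36) (SD, n = 3). The ranges of *rrf-1* and *drh-3*, of *eri-1* and *rrf-3*, and of *rrf-3* and *pir-1* overlapped, and the other neighbours in this order were apart. In the mutant *rrf-2* was highest at 760 ± 18.1, ahead of *rde-4* at 239 ± 29.2 and *ego-1* at 141 ± 5.59. *eri-1* followed at 102 ± 14.5 with a range that overlapped that of *drh-3* (90.9 ± 5.03). Then came *rrf-1* (74.8 ± 9.71), *rrf-3* (50.3 ± 4.82) and *ekl-1* (42.2 ± 2.97), the latter pair overlapping, and last *dcr-1* (29.8 ± 1.45) and *pir-1* (23.3 ± 8.29), which also overlapped.

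Ranked by counts per kilobase among 19725 protein-coding genes within each library, *rde-4* stood at the 96.9 to 97.2 percentile in wild-type and at 94.9 to 95.7 in the mutant. *rrf-2* moved from between 92.6 and 93.1 to between 97.7 and 97.8, and *eri-1* from between 80.2 and 81.9 to between 87.4 and 90.5. *ekl-1* moved down, from between 82.9 and 84.8 to between 76.3 and 78.3, as did *pir-1*, from between 74.9 and 80.8 to between 64.5 and 72.9. The percentiles of *ego-1* (89.7 to 91.3 and 92.0 to 92.7) and *drh-3* (86.6 to 87.3 and 87.5 to 88.7) were slightly higher in the mutant, without overlap. Those of *rrf-1* (86.9 to 87.5 and 83.7 to 87.1), *dcr-1* (71.9 to 72.8 and 72.0 to 73.2) and *rrf-3* (77.1 to 80.3 and 78.5 to 81.0) overlapped between the genotypes. All members thus carried more 22G-RNAs per length than most protein-coding genes in every library, but this ranking includes genes without any count. Of the 19725 genes, 12804 to 13357 had counts in a library, and ranks among these alone were not computed.

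The other genes of the small RNA pathways were counted in 4 lists with 43 genes. Of these, 1 was called higher and 3 lower than 2-fold, beside the 8.15% and 8.14% of all loci given above, and 8 were higher and 17 lower in the test against no change, beside 20.4% and 22.7%. Their median log2 fold change was -0.05. With total-count scaling 1 was higher and 10 lower than 2-fold, beside 4.26% and 20.0% of all loci, and 2 were higher and 38 lower against no change, beside 9.22% and 46.7%.

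Among 13 genes of Mutator foci and RNAi amplification, *smut-1* and *rde-8* were called lower than 2-fold. *smut-1*, a DEAD-box helicase related to MUT-14, had 358, 439 and 445 counts in N2, against 40, 36 and 31 in *lotr-1(sam117)* (log2 fold change -2.76, SE 0.188), and reads it shares with *mut-14* are uncertain. *rde-8*, an endoribonuclease, had 131, 144 and 141 against 19, 17 and 14 (log2 fold change -2.29, SE 0.291). At an unadjusted p below 0.05 in the DESeq2 test against 2-fold, 4 genes of this list were lower. The further ones were *mut-2* (log2 fold change -1.64, SE 0.285) and *nyn-2* (-1.41, SE 0.187). In edgeR 4 genes of this list were called lower than 2-fold. The highest value of this list was that of *rde-11* (0.21), which was -0.58 with total-count scaling. Among 11 genes for germline Argonautes and their partners, *cde-1* (*cid-1* in the annotation), the uridylyltransferase that acts on CSR-1 22G-RNAs, was called lower, with 616, 772 and 785 counts against 121, 114 and 130 (log2 fold change -1.80, SE 0.123). The highest value there was that of *prg-1* (0.27), which was -0.52 with total-count scaling.

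Among 10 genes listed under exogenous RNAi and miRNA processing, *sid-1*, which encodes a double-stranded RNA channel, had 2509, 2813 and 3117 counts in N2, against 20587, 21674 and 19999 in *lotr-1(sam117)*. It was called higher than 2-fold under both scalings, with log2 fold changes of 3.66 (SE 0.0392) and 2.87. The lowest value of this list was that of *pash-1*, a partner of Drosha, at -1.24 (SE 0.264), which did not pass the DESeq2 test against 2-fold with size factors. It passed that test when scaled by totals (log2 fold change -2.03, adjusted p = 3.59e-04), and edgeR also called it lower than 2-fold. Among 9 genes of the 26G-RNA pathway, 0 were called against 2-fold in either direction by DESeq2 with size factors or by edgeR, and 0 had an unadjusted p below 0.05 in that DESeq2 test. With total-count scaling DESeq2 called 2 of them lower than 2-fold, *eri-3* (log2 fold change -1.54, adjusted p = 2.73e-04) and *henn-1* (-1.53, adjusted p = 0.0656). In the test against no change, 1 was higher (*eri-6*, 0.88) and 4 were lower, of which *eri-3*, which encodes a component of the ERI complex, was lowest at -0.75. With total-count scaling *eri-6* was at 0.09.

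**Figure D5:**
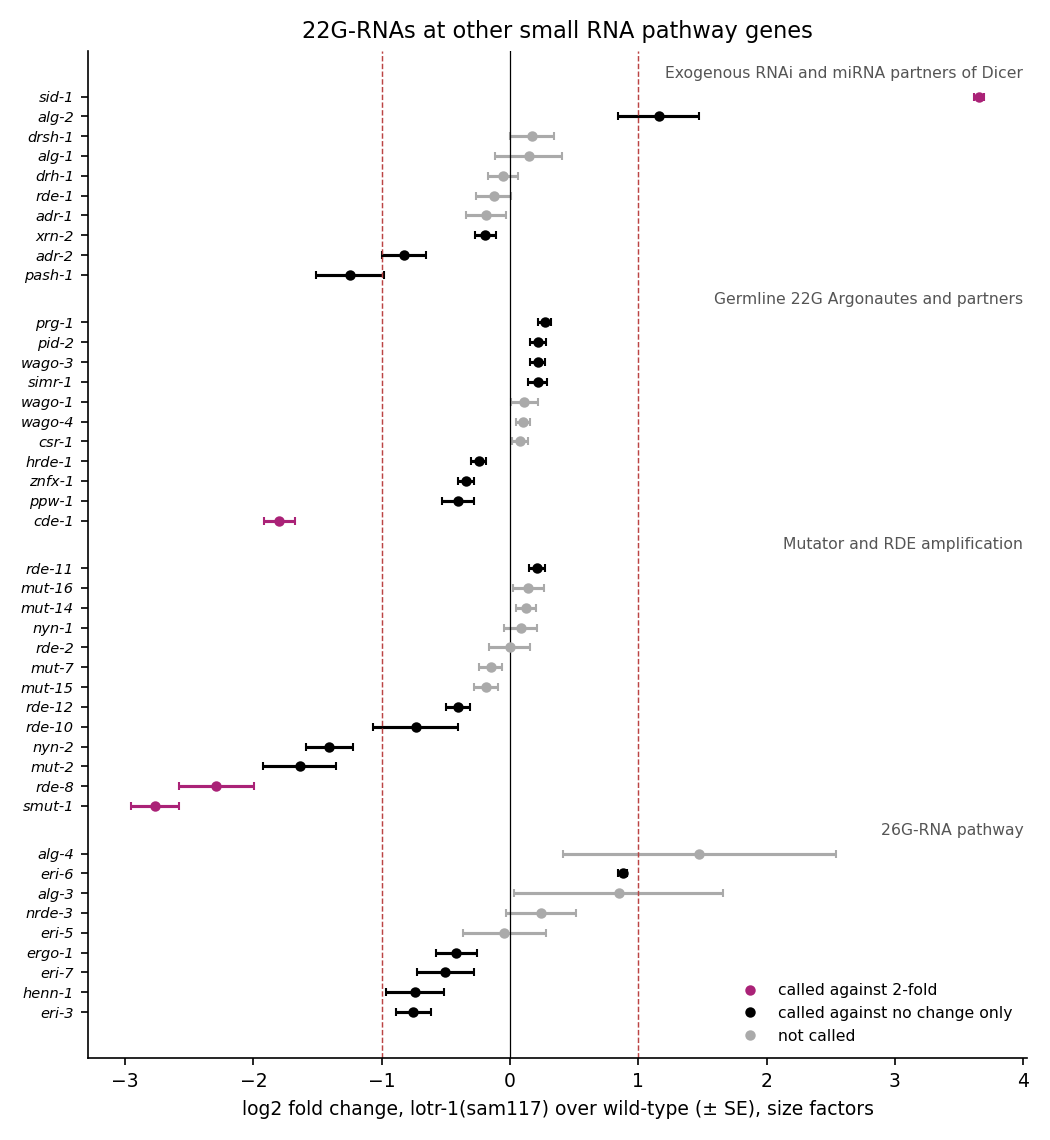
Log2 fold change (*lotr-1(sam117)* over wild-type, ± SE, size factors) of 43 other small RNA pathway genes in 4 lists. Genes called against 2-fold are magenta, genes called against no change only are black and the others are grey. *sid-1* lies at 3.66, and *smut-1*, *rde-8* and *cde-1* lie between -2.76 and -1.80.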

How the data were processed

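22G-RNAs were counted in 3 wild-type and 3 *lotr-1(sam117)* libraries. The deposited values are raw counts per locus, which the authors obtained by trimming with cutadapt 2.4, aligning to WBcel235 with Bowtie 1.2.2 (best hits, a random position for reads with several) and counting antisense reads with featureCounts 1.6.2 (Ensembl annotation). Collapsing of PCR duplicates is not stated. Gene names, coordinates and exon lengths came from Ensembl release 115, in which 22014 of 22185 gene identifiers were found.

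All loci were fitted with DESeq2 1.42.0 in R 4.3.3 (median-of-ratios size factors, genotype as the only term, independent filtering), with Wald tests against a log2 fold change of 1, following the 10% FDR and 2-fold limits of the study, and against 0. DESeq2 p-values were adjusted by Benjamini-Hochberg over the loci that passed independent filtering. With size factors these were 11682 loci against 2-fold and 13386 against no change. The edgeR p-values were adjusted over the 11682 loci in both of its tests. The fits were tested on simulated counts with changes well past 2-fold, balanced in direction. This does not test the choice of scaling or changes near 2-fold. Alternatives used total-count scaling, TMM, factors from protein-coding genes, other filters, 5% FDR, a replicate block, each library left out, and edgeR 4.0.16 (quasi-likelihood). Intervals are 95% Wald intervals.

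The members, lists and tests were chosen with earlier results of these data known. All members were named. Other pathway genes were named if called against 2-fold or at the extremes of their list (mean of at least 10 normalized counts). *mut-2* and *nyn-2* were named for an unadjusted p below 0.05 in the DESeq2 test against 2-fold, and *eri-7* for its locus. The 3 protein-coding genes nearest to the members with the highest mean, highest and lowest fold change were also named. Sequences and other small RNA classes were not used here.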

Additional observations from a re-analysis of the deposited data

How the results depend on the processing

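The rise of *rrf-2* past 2-fold was found in all 13 alternatives that kept scaling near the median locus, with log2 fold changes from 2.11 to 2.18, and with total-count scaling. Total-count scaling changed most other results: it turned *ego-1* to -0.69 and *eri-1* to -0.18, gave 3 members lower than 2-fold, and against no change 1 member higher and 8 lower. Of the other pathway genes it called 10 lower than 2-fold, and 2 higher and 38 lower against no change. Of all loci it called 498 higher and 2331 lower than 2-fold, and 1297 higher and 6576 lower against no change, where size factors gave 952, 951, 2726 and 3039. With edgeR, 1 member was lower than 2-fold, as were 6 other pathway genes, and 1478 loci were higher and 1535 lower. With TMM factors 5 pathway genes were lower than 2-fold, and with a minimum of 10 counts in 3 libraries also 5, compared with 3 in the fit reported above. The cause of these differences was not tested. The call of *dcr-1* was also lost at 5% FDR, without independent filtering and with size factors from protein-coding genes. Replicate numbers did not pair the libraries, since same-numbered libraries deviated with correlations of 0.0077 to 0.0088 and none correlated best with its own number. The replicate block called 834 loci higher and 822 lower than 2-fold, and 4 members lower against no change in place of 5. Counts limit *pir-1* most, with 12 to 23 per mutant library.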
